A study of Mus musculus with 20 samples.

Results

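The genes described here are the aminoacyl-tRNA synthetases of the mouse, 20 that serve the cytosol and 16 that serve mitochondria, with 3 scaffold proteins of the multisynthetase complex, 39 of the 25317 gene identifiers measured. They were listed by name and chosen for the contrast of ribosome-bound RNA with the lysate it came from, so every value of that contrast below is a description of genes chosen from it and carries no test of the members. All 39 passed the filter on low counts in each comparison. Members were named from the gene identifiers by their Ensembl and mouse gene names, and Mars1 is listed as Mars in the annotation.

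RNA was measured in the cortex of C57BL/6 mice aged 3 months, either wild type or carrying a heterozygous Foxp2 deletion, which the series places in the cortex. The sources used here do not name what drives the deletion. Each library came from 1 animal. In all groups, ribosomes carrying a green fluorescent protein tag were pulled down from the cortical lysate with anti-GFP serum (bacTRAP, called IP), and a part of the same lysate was set aside before the pull-down (Input). Nor do they say which cells carry the tag. The comparisons rest on 8 animals with both fractions. The 3 heterozygotes are hetBT13, het729 and het786, the 5 wild types are wtBT13, wtBT14, wt734, wt736 and wt785, and values by library follow this order. Another 4 heterozygous Input libraries, of the animals het730 and hetBT14, have titles ending in IX or IXX that the labels do not explain. They were left out of the comparisons.

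Aminoacyl-tRNA synthetases join each amino acid to the tRNAs that read its codons, and so set which amino acid a codon stands for. They fall into class I and class II by the fold of the catalytic domain. In mammals the cytosol and the mitochondrion have separate sets, all encoded in the nucleus, and Gars (glycine) and Kars (lysine) each make the enzyme of both compartments from the same gene. Several cytosolic enzymes are bound in the multisynthetase complex, which the scaffolds Aimp1, Aimp2 and Eef1e1 help hold together. Many cytosolic synthetase genes are known targets of Atf4, the transcription factor of the amino acid response. Neurons depend on these enzymes: changes in Gars, Yars and Aars cause peripheral neuropathies in people, and changes in several mitochondrial ones cause disease of the brain's white matter.

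Promoter sequences are shown because Atf4 is known to act through a short element in some of these promoters. RefSeq promoters (GRCm38.p6, 250 bases before to 50 bases after the gene's start) were available for 13 cytosolic, 14 mitochondrial and 3 scaffold members. They were searched for TGATGNAA, the core letters of the element that Atf4 binds with its C/EBP partners, on both strands, where N is any base. The opposite strand reads TTNCATCA. The motif was found in 5 of the 13 cytosolic promoters, in 0 of the 14 mitochondrial ones and in 0 of the 3 scaffold ones, counted by gene, beside 4.51% of the 27025 genes and 3.97% of the 32851 promoters in the table. A match is a description of letters and no evidence of binding, and no match says only that these letters are not in this window. One match of each of the 5 genes is given as 30 bases on the gene's own strand, with the motif in capitals.
Aars, chr8:111033840-111033869, plus strand: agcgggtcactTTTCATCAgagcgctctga
Gars, chr6:55037960-55037989, plus strand: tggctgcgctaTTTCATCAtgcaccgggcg
Iars, chr13:49682126-49682155, plus strand: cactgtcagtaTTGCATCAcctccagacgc
Tars, chr15:11399655-11399684, minus strand: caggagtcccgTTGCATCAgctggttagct
Yars, chr4:129189895-129189924, plus strand: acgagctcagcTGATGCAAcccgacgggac
Counted from the start, the motif shown began at base 10 in Aars, -30 in Gars, 8 in Iars, -15 in Tars and 4 in Yars. In Yars alone it ran in the direction of the gene. The promoters of Cars, Hars, Lars, Nars, Rars, Vars, Wars, Hars2 and Pars2 were not analysed here.

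The 20 libraries held 2689544 to 5754169 counts, and the least counted member had 9 to 39 counts in each of the 16 libraries compared. Levels are CPM, counts scaled for library size, after TMM, edgeR's trimmed mean of M-values scaling, and errors are SD over animals. The members together took 0.34% to 0.374% of counts in Input and 0.43% to 0.529% in IP. Foxp2 was lower on average in heterozygotes, at 59.3% of the wild-type level in Input, where the groups did not overlap (exact permutation test, two-sided, p = 0.0357), and at 66.6% in IP, where they did (exact p = 0.143). The first of these is the smallest p that this test of 3 against 5 animals can give. All 7 genes of a list written for layer 6 corticothalamic neurons were higher in IP, with a median log2 difference of 0.74. Their summed levels were 505 to 698 CPM in IP against 294 to 386 CPM in Input. How particular each gene is to these neurons was not tested. Foxp2, which is on the layer 6 list, was higher in IP in 7 of 8 animals. General neuronal markers had a median of -0.42, astrocyte markers -0.97, interneuron markers -1.51, microglial markers -1.52 and oligodendrocyte markers -2.03. In the neuronal list and in the astrocyte list, 1 of 7 markers was called higher, where 33.3% of all genes tested were. Of these lists, 0 markers were at 0 in all libraries. Their part in the members' values was not tested. The het729 IP library stood apart, with 0.315% of its counts on mRNAs of the mitochondrial genome against 0.0457% to 0.0978% in the other 7 IP libraries. In bulk samples such as these, fewer cells of a type and less RNA per cell cannot be told apart.

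Most synthetase mRNAs made up a larger part of the ribosome-bound RNA than of the lysate. Averaged over animals, 33 of the 39 members were higher in IP than in Input, 23 of them in all 8 animals, while Nars and Lars2 were lower in all 8. The log2 ratio of IP to Input, taken within each animal, ran from -0.85 for Lars2 to 2.43 for Eprs. The median log2 fold change from the fit was 0.38 over cytosolic members, 0.50 over mitochondrial members and 0.45 over scaffolds, beside 0.04 over all 14797 genes tested. By edgeR's quasi-likelihood test with Benjamini-Hochberg adjustment, at an adjusted p below 0.05, 24 members were called higher and 3 lower. Of all genes tested, 63.2% were called in this comparison, 33.3% higher and 29.9% lower. The 8 IP libraries all lay above the 8 Input libraries for 17 members and all below for 1, Nars, where 12.3% and 12.4% of all genes did so. Because the contrast was used to choose the genes, nothing is read from these counts.

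**Figure D1:**
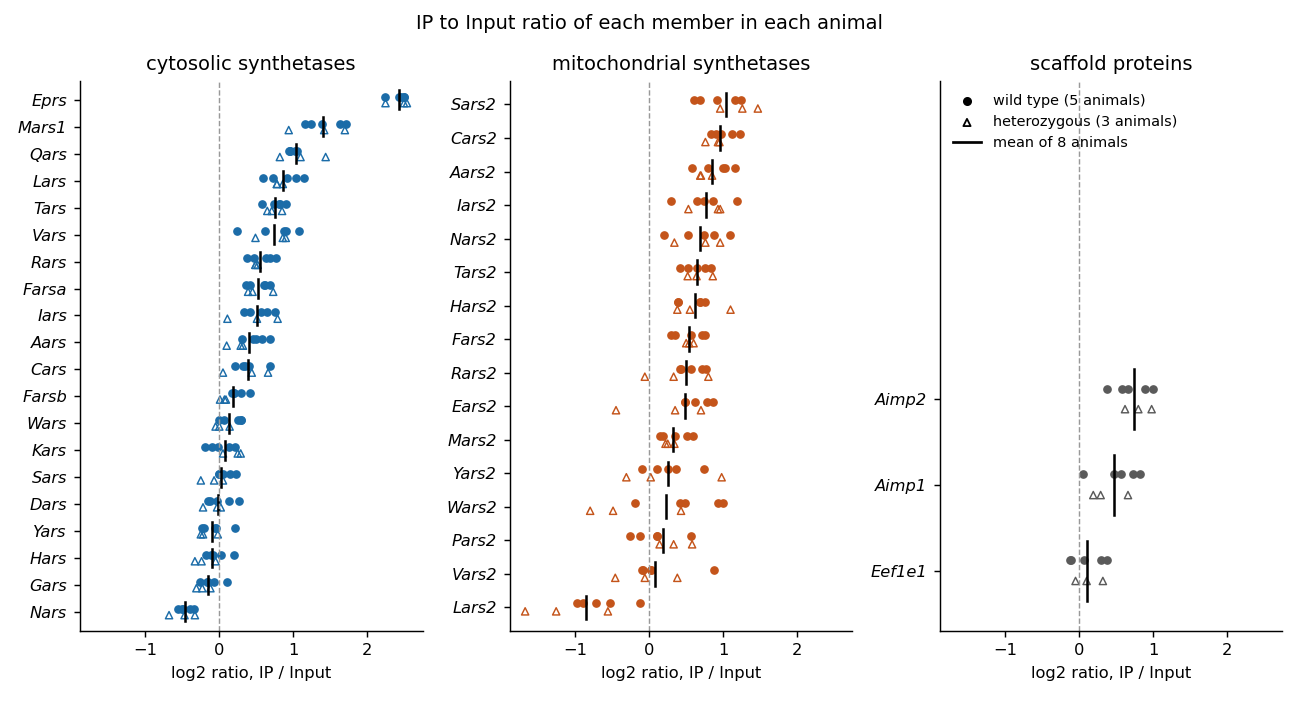
Log2 ratio of IP to Input (x axis) of each member (y axis) in each of 8 animals, filled circles wild type and open triangles heterozygous, with the mean as a black bar, in separate panels for cytosolic synthetases, mitochondrial synthetases and scaffolds. Eprs lies at 2.24 to 2.54 in every animal and Nars below 0 in every animal, while 15 of the 16 mitochondrial means lie above 0 and Lars2 lies below.

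Among cytosolic enzymes Eprs stood highest. Eprs (ENSMUSG00000026615, chromosome 1, 185363044 to 185428360 in mm10, plus strand) encodes the fused glutamyl-prolyl-tRNA synthetase of the multisynthetase complex. It held 58.3, 76.2 and 98.7 CPM in the lowest, median and highest Input library and 278.5 to 481 CPM, with a median of 431, in IP. Every IP library lay above every Input library, and het729 was the lowest library of both fractions. The log2 ratio was 2.43 ± 0.12 (SD, n = 8 animals), a 5.38-fold difference, and 28 of the 14797 tested genes had a higher ratio. The ratio was 2.43 in wild types and 2.43 in heterozygotes, and 2.45 without het729. Eprs transcripts share stretches of at least 50 bases, at 95% identity or more, with transcripts of 270 other genes. The longest is 207 bases, with Mgea5, and the part of this sharing was not tested.

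Mars1 came next. It encodes the cytosolic methionyl-tRNA synthetase (ENSMUSG00000040354, chromosome 10, 127296221 to 127311786, minus strand), which also charges the initiator tRNA that opens every protein. Input libraries held 58.2 to 92.4 CPM with a median of 71.5, and IP libraries 141 to 223 CPM with a median of 208. The groups did not overlap, with het729 again the lowest IP library. The log2 ratio was 1.4 ± 0.28 (SD, n = 8). Its exons share 68 bases with those of Ddit3 on the opposite strand, and Ddit3, a transcription factor of the stress response, was at 28.5 to 41.5 CPM in IP against 34.8 to 48.7 CPM in Input.

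Qars, the glutaminyl enzyme, held 25.3 to 35.1 CPM in Input and 52.1 to 68.7 CPM in IP, with medians of 29.1 and 62.3. Its log2 ratio was 1.04 ± 0.18 (SD, n = 8), with het786 at 1.44, apart from the other animals at 0.82 to 1.10. Lars, the leucyl enzyme and a leucine sensor in growth signalling, had 34.1 to 52.3 CPM in Input and 61.8 to 90.1 CPM in IP, with medians of 37.2 and 69.0. Tars, the threonyl enzyme, had 30.1 to 48.4 CPM in Input and 54.1 to 84.7 CPM in IP, with medians of 39.0 and 69.3. For all 3 genes the IP and Input libraries did not overlap, and the log2 ratios of Lars and Tars were 0.86 ± 0.18 and 0.76 ± 0.11 (SD, n = 8).

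At the other end were enzymes of high level in the lysate. Nars, the asparaginyl enzyme, held 414 to 533 CPM in Input with a median of 491, and 314 to 365 CPM in IP with a median of 338. It was lower in IP in each animal, with no overlap and a log2 ratio of -0.47 ± 0.12 (SD, n = 8). Gars, the glycyl enzyme of both compartments, had 277 to 363 CPM in Input and 268 to 300 CPM in IP, with medians of 322 and 287. Hars, the histidyl enzyme, had 214 to 299 CPM in Input and 235 to 254 CPM in IP, with medians of 269 and 247. For both the libraries overlapped, and the log2 ratios were -0.15 ± 0.13 for Gars and -0.10 ± 0.16 for Hars (SD, n = 8). Gars was called lower (edgeR adjusted p = 0.0305), a call that leaving out any of 5 single animals ended, and Hars was not (adjusted p = 0.110) except without het729 (adjusted p = 0.0421). Scaling by totals alone moved the median of all genes from 0.03 to 0.27 and put Gars at 0.10 and Hars at 0.15, both below that median.

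The remaining cytosolic members lay between. Vars (valine) had a mean log2 ratio of 0.74, Rars (arginine) 0.55 and Farsa (the alpha subunit of the phenylalanyl enzyme) 0.53. Iars (isoleucine) had 0.51, Aars (alanine) 0.40 and Cars (cysteine) 0.39. Each of these had all 8 animals above 0. Aars shares 1326 exon bases, 14.3% of its exon length, with Exosc6 on the same strand. Iars transcripts share 1656 bases, at 96.0% identity, with the pseudogene Gm4849. The part of this sharing was not tested. Farsb, the beta subunit that pairs with Farsa in 1 enzyme, had 0.18 ± 0.13 beside 0.53 ± 0.14 for Farsa (SD, n = 8). It shares 248 exon bases, 9.5% of its exon length, with Sgpp2 on the opposite strand, whose part was not tested. Farsb was called higher (edgeR adjusted p = 0.0241), a call lost under DESeq2, under RLE scaling and without het729, het786, hetBT13 or wt734. The members nearest 0 were Wars (tryptophan) at 0.13, Kars (lysine) at 0.08, Sars (serine) at 0.02, Dars (aspartate) at -0.02 and Yars (tyrosine) at -0.10, and none of these 5 was called with all animals. Without wt734 Yars was called lower (edgeR adjusted p = 0.0496).

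**Figure D2:**
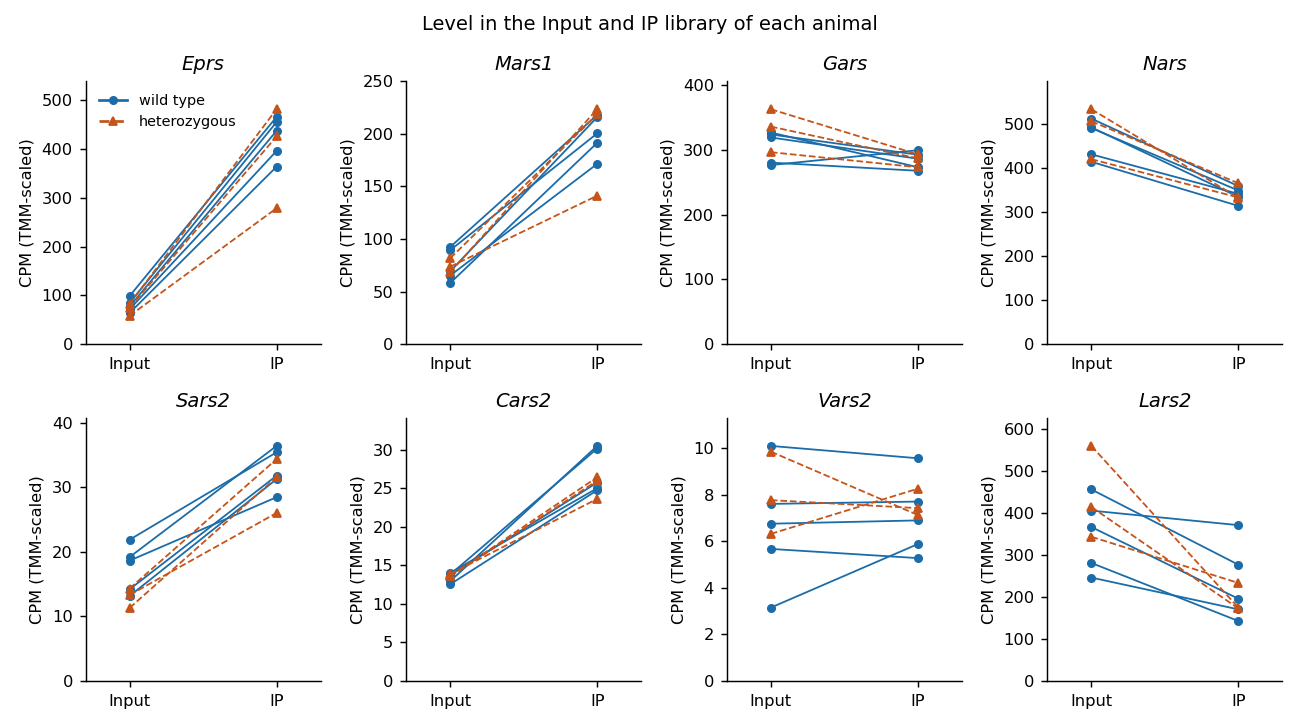
TMM-scaled CPM (y axis, from 0) in the Input and IP library of each of 8 animals for 8 named members, circles and solid lines wild type, triangles and dashed lines heterozygous. Every line rises for Eprs, Mars1, Sars2 and Cars2 and falls for Nars and Lars2, while the lines of Vars2 run in both directions.

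Cytosolic enzymes were also set apart by complex and by class. The 8 synthetases of the complex (Eprs, Mars1, Qars, Lars, Rars, Iars, Kars and Dars) had a median log2 fold change of 0.69, with 6 called higher and 0 lower. The 12 outside it had a median of 0.13, with 6 called higher and 2 lower. Of all genes tested, 33.3% were called higher and 29.9% lower. The complex had the higher median in each of 8 animals. By class, the 9 cytosolic class I enzymes had a median of 0.54 and the 10 of class II a median of 0.05. In mitochondria the order was turned round, with 0.31 over 9 class I and 0.65 over 7 class II enzymes. These are descriptions of chosen genes, and they overlap: 6 of the 8 complex members are class I or hold a class I part.

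Among mitochondrial synthetases, Sars2, Cars2 and Aars2 had the highest ratios. Sars2, the mitochondrial seryl enzyme (ENSMUSG00000070699, chromosome 7, 28741992 to 28753871, plus strand), held 11.3 to 21.9 CPM in Input with a median of 14.2, and 26.0 to 36.4 CPM in IP with a median of 31.6. Cars2, the cysteinyl enzyme, had 12.6 to 14.0 CPM in Input and 23.6 to 30.5 CPM in IP, with medians of 13.7 and 25.9. Aars2, the alanyl enzyme, had 20.3 to 29.5 CPM in Input and 31.9 to 52.9 CPM in IP, with medians of 25.2 and 44.7. None of the 3 genes had an IP library within the range of Input. Their log2 ratios were 1.04 ± 0.30 for Sars2, 0.96 ± 0.15 for Cars2 and 0.85 ± 0.20 for Aars2 (SD, n = 8). Cars2 shares 422 exon bases, 5.8% of its exon length, with Naxd on the opposite strand. Naxd had 7381 counts over all libraries and Cars2 1700, and the part of Naxd was not tested.

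A middle group of mitochondrial enzymes was also higher in IP. Iars2 had a mean log2 ratio of 0.77, Nars2 0.69, Tars2 0.65, Hars2 0.62, Fars2 0.54, Rars2 0.50 and Ears2 0.48. All 7 were called higher, where 33.3% of all genes tested were. Ears2, the glutamyl enzyme, was below 0 in 1 animal, het786, at -0.45, and its call was lost without hetBT13 (edgeR adjusted p = 0.0746). Mars2, the methionyl enzyme, was above 0 in all 8 animals at a mean of 0.32 but was not called (adjusted p = 0.0559). Fars2 shares 501 exon bases, 8.7% of its exon length, with Nrn1 on the opposite strand. Nrn1 had 32929 counts over all libraries and Fars2 4176, and the part of Nrn1 was not tested. Iars2 shares 2034 exon bases with Rab3gap2 on the opposite strand, 22.9% of its exon length. Rab3gap2 itself was at 42.7 to 115.5 CPM in IP against 22.9 to 35.4 CPM in Input, a log2 ratio of 1.28 ± 0.30 (SD, n = 8), and its part in the Iars2 value was not tested.

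The 5 mitochondrial members of lowest ratio did not share a level. Yars2, the tyrosyl enzyme, had 21.9 to 32.5 CPM in Input and 21.7 to 44.6 CPM in IP, with medians of 27.2 and 32.6. Wars2, the tryptophanyl enzyme, had 3.68 to 9.31 CPM in Input and 3.38 to 11.5 CPM in IP, with medians of 5.64 and 6.62. Pars2, the prolyl enzyme, had 12 to 23.5 CPM in Input and 13.8 to 25.3 CPM in IP, with medians of 16.7 and 18.4. The libraries overlapped for each of them, and 2 animals lay below 0 for Yars2 and for Pars2 and 3 for Wars2. Vars2, the valyl enzyme, had 3.15 to 10.1 CPM in Input and 5.27 to 9.56 CPM in IP, with medians of 7.17 and 7.27. Its log2 ratio was 0.08 ± 0.40 (SD, n = 8), 4 animals above 0 and 4 below.

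Lars2, the mitochondrial leucyl enzyme (ENSMUSG00000035202, chromosome 9, 123366927 to 123462666, plus strand), stood apart from its group in level and in ratio. It held 246 to 560 CPM in Input with a median of 386, and 143 to 371 CPM in IP with a median of 185. The ranges overlapped, but each animal was lower in IP, with a log2 ratio of -0.85 ± 0.48 (SD, n = 8) that ran from -1.68 in het786 to -0.13 in wt734. Lars2 transcripts share a stretch of 72 bases, at 98.6% identity, with Gm15564, an antisense RNA gene. The counts of Lars2 were 1.92 to 2.10 times those of Gm15564 in the 8 Input libraries compared and 2.17 to 2.74 times in the 8 IP libraries. The log2 ratio of IP to Input of Gm15564 was -1.09 ± 0.47 (SD, n = 8). Overlap of Lars2 exons with those of Gm15564 was not found, so the sharing is of like sequence. The values of Lars2 are uncertain, and the part of shared sequence in them was not tested. Without Lars2 the mean over animals of the mitochondrial median log2 ratio was 0.57, against 0.53 with it.

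The scaffolds followed the enzymes in part. Aimp2, which holds Dars and Kars in the complex, had 24.8 to 29.9 CPM in Input and 38.3 to 58.1 CPM in IP, with medians of 27.3 and 46.6. Aimp1, which binds Rars and can be cut to a secreted cytokine, had 47.2 to 69.8 CPM in Input and 70.4 to 93.7 CPM in IP, with medians of 57.4 and 79.1. Eef1e1, which binds Mars1, had 67.0 to 98.7 CPM in Input and 83.7 to 103 CPM in IP, with medians of 87.9 and 91.2. Aimp2 and Aimp1 did not overlap between fractions, with log2 ratios of 0.74 ± 0.22 and 0.47 ± 0.27, while Eef1e1 overlapped, at 0.11 ± 0.20 (SD, n = 8). Aimp2 shares 487 exon bases, 29.4% of its exon length, with Eif2ak1 on the opposite strand. Eif2ak1, the heme-regulated kinase of the stress response, had 112 to 133 CPM in IP and 92.4 to 114 CPM in Input, and its part in the Aimp2 value was not tested.

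The compartments were set against each other by their medians. Within animals, the median log2 ratio of cytosolic members averaged 0.33 ± 0.10 and that of mitochondrial members 0.53 ± 0.12 (SD, n = 8). The mitochondrial median was the higher in 7 of 8 animals. The exception was wt734, where it was lower by 0.17, and in the other animals the difference ran from 0.11 in het729 to 0.43 in hetBT13. Without Gars and Kars, which serve both compartments, the cytosolic median averaged 0.42, and in het729 too it was then above the mitochondrial one, at 0.36 against 0.34. Among animals with BT in the name the medians averaged 0.28 for cytosolic and 0.62 for mitochondrial members, and among those named by number alone 0.36 and 0.48.

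Enzymes of the same amino acid went apart in both directions. Of 17 pairings of a cytosolic with a mitochondrial gene for the same amino acid, the cytosolic ratio was the higher on average in 7 and the mitochondrial in 10. The cytosolic ratio was higher in all 8 animals in 5 pairings, which were Eprs with Pars2, Eprs with Ears2, Lars with Lars2, Mars1 with Mars2 and Vars with Vars2. The mitochondrial ratio was higher in all 8 in the 5 pairings for asparagine, serine, histidine, cysteine and alanine. The largest difference in that direction was between Nars and Nars2, where the cytosolic minus the mitochondrial log2 ratio was -1.16 ± 0.42 (SD, n = 8). For Farsa and Fars2 the difference was -0.01 ± 0.24 and for Rars and Rars2 0.06 ± 0.31, both within the spread between animals. Hars and Hars2 lie head to head and share 195 exon bases on opposite strands, and still differed by -0.71 ± 0.37.

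**Figure D3:**
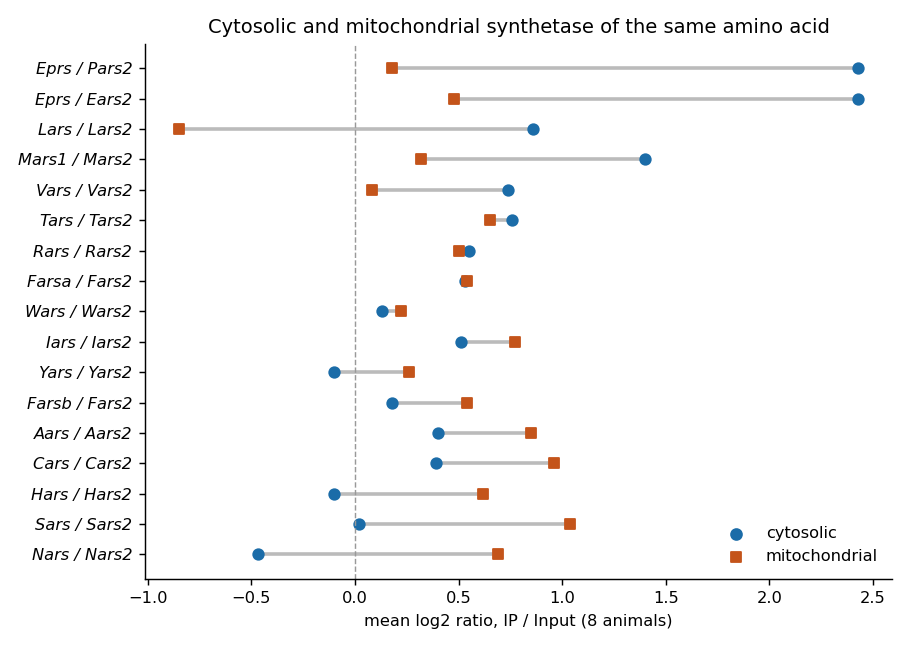
Mean log2 ratio of IP to Input over 8 animals (x axis) of the cytosolic (circle) and mitochondrial (square) enzyme of the same amino acid, 1 line for each of 17 pairings. The circle lies to the right in the 7 upper pairings and to the left or level with the square in the others.

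Coding length moved with the ratio among cytosolic members. Across the 12567 protein-coding genes tested, Spearman's rho between coding length and the mean log2 ratio of IP to Input was 0.32, and genes are not independent replicates. It was 0.64 over the 20 cytosolic members and 0.58 without Eprs, beside 0.04 over the 16 mitochondrial ones. Eprs has the longest coding sequence of the members, 4536 bases, and all 300 other coding genes within 10% of that length had a lower ratio. Mars1, with 2730 coding bases, had a higher ratio than 870 of 880 genes of like length, and Sars2, with 1554, than 1469 of 1513. Nars, with 1677 bases, had a higher ratio than 210 of 1410 such genes, and Lars2, with 2706, than 23 of 890. All these points share the same 16 libraries, and the part of length in the members' ratios was not tested.

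**Figure D4:**
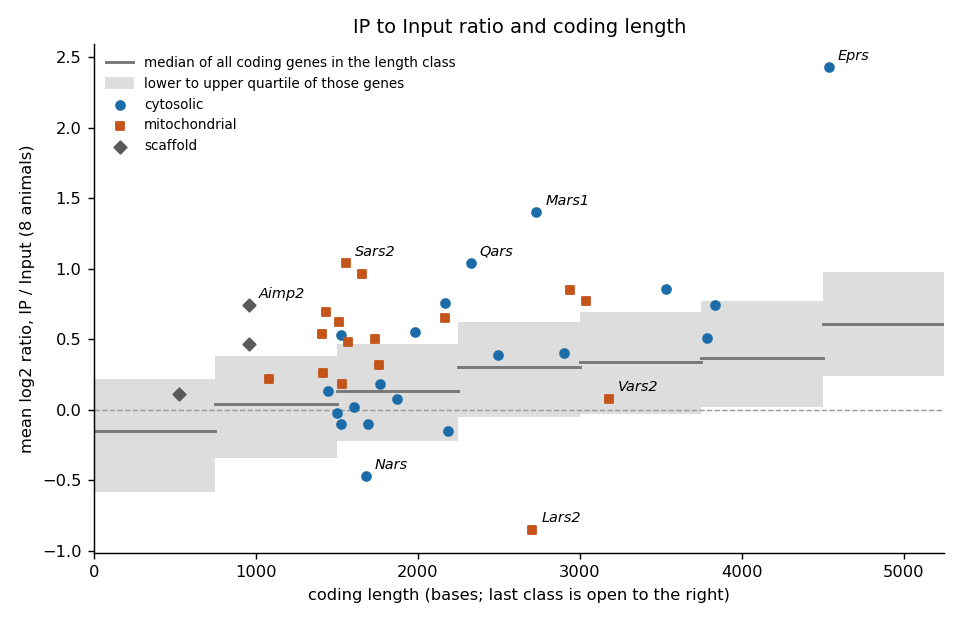
Mean log2 ratio of IP to Input over 8 animals (y axis) against coding length in bases (x axis), with the median and quartiles of all tested coding genes in 7 length classes in grey and members as points. Eprs, Mars1, Qars and Sars2 are among the members above the grey band of their length class, and Nars and Lars2 lie below it.

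Levels per length are in CPM per kilobase of the transcript with the longest coding sequence. They ran from 0.804 for Mars2 to 173 for Nars in Input. The 4 highest were Nars, Sars, Hars and Gars, at 173 ± 16.8, 157 ± 9.59, 133 ± 14.0 and 132.5 ± 12.3 CPM per kilobase (SD, n = 8), and each overlapped the next. Between Gars and Wars, at 101 ± 9.05, the libraries did not overlap. Mitochondrial members other than Lars2 had 22.6 or fewer, from Rars2 at 22.6 ± 2.85 down to Vars2, Wars2 and Mars2 at 1.61, 1.31 and 0.804. The place of Mars2 depends on its transcript of 11294 bases, of which 1758 are coding. Before division by length its mean Input level, 9.08 CPM, was above those of Vars2 at 7.15 CPM and Wars2 at 5.76 CPM. A gap in which the libraries did not overlap also set Vars2 apart from Nars2, at 4.95 ± 0.72. Eprs had 84.2 ± 13.5 CPM per kilobase in IP and 15.6 ± 2.57 in Input.

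No member passed the test between genotypes, and the members' values are given with their spread. In IP, 0 of 39 members were called between 3 heterozygous and 5 wild-type animals (edgeR adjusted p of 0.981 or higher), as 0% of the 14755 genes tested were. In Input, 0 of 39 were called (lowest adjusted p 0.696), again beside 0% of 13870 genes. At an unadjusted p below 0.05, 1 member passed in IP, where 4.09% of all genes did, and 1 in Input, where 7.06% did. DESeq2 and limma-voom also called 0 members in either fraction, and over all genes DESeq2 called 3 in IP and 0 in Input and limma-voom 0 in both. Log2 fold changes of heterozygous against wild type ran from -0.64 to 0.30 in IP and from -0.42 to 0.32 in Input, with medians of -0.05 and 0.03 over the members and 0.00 and 0.01 over all genes.

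The members of smallest p in IP were all mitochondrial. Wars2 held 11.5, 7.45, 6.66, 6.07 and 7.49 CPM in the wild-type libraries and 5.0, 6.59 and 3.38 CPM in the heterozygous ones. The groups overlapped through het729, and wtBT13 was the highest of all. The fold change was -0.64 ± 0.29 (log2, SE; edgeR adjusted p = 0.981), and heterozygotes had 63.7% of the wild-type mean, 52.7% within the animals with BT in the name and 73.9% within the others. Without het786 the log2 fold change was -0.42. Mars2 held 14.2, 13.8, 8.71, 12.6 and 13.7 CPM in wild types and 9.32, 8.91 and 10.5 CPM in heterozygotes. Heterozygotes lay below all wild types but wt734, with a log2 fold change of -0.39 ± 0.21 (SE). Rars2, the arginyl enzyme, held 67.3, 70.6, 55.7, 61.7 and 64.6 CPM in wild types and 66.9, 45.1 and 48.2 CPM in heterozygotes. Its log2 fold change was -0.26 ± 0.14 (SE), with hetBT13 inside the wild-type range, and it was -0.46 without hetBT13 and -0.15 without het729. Wars2 was the member that passed at an unadjusted p, and Mars2 and Rars2 did not (edgeR adjusted p = 0.981 for both).

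In Input the smallest p was that of Sars2. It held 19.2, 21.9, 14.2, 18.6 and 13.2 CPM in wild-type libraries and 14.3, 13.3 and 11.3 CPM in heterozygous ones. The heterozygous libraries were low, and they overlapped with wt734 and wt785. The log2 fold change was -0.42 ± 0.20 (SE; edgeR adjusted p = 0.696), and in IP it was -0.09 ± 0.14. Heterozygotes had 74.5% of the wild-type mean in Input, 69.7% within the animals with BT in the name and 80.3% within the others. With the IX and IXX libraries added, summed per animal, it was -0.50 with an adjusted p of 0.686. Hars held 266, 272, 214, 242 and 275 CPM in wild types and 299, 257 and 294.5 CPM in heterozygotes, which overlapped (log2 fold change 0.16 ± 0.10, SE, and 0.10 without wt734). Farsb held 165, 151, 138, 154 and 154 CPM in wild types and 168, 171 and 168 CPM in heterozygotes, all 3 above every wild type. Its log2 fold change was 0.15 ± 0.09 (SE; edgeR adjusted p = 0.735). Farsb was the only member whose genotypes did not overlap in Input, where 5.35% of all genes did not. In IP the only one was Kars, chosen here after its values were seen, with 185 to 209.6 CPM in wild types and 211 to 220.2 CPM in heterozygotes, where 3.56% of all genes did not overlap.

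**Figure D5:**
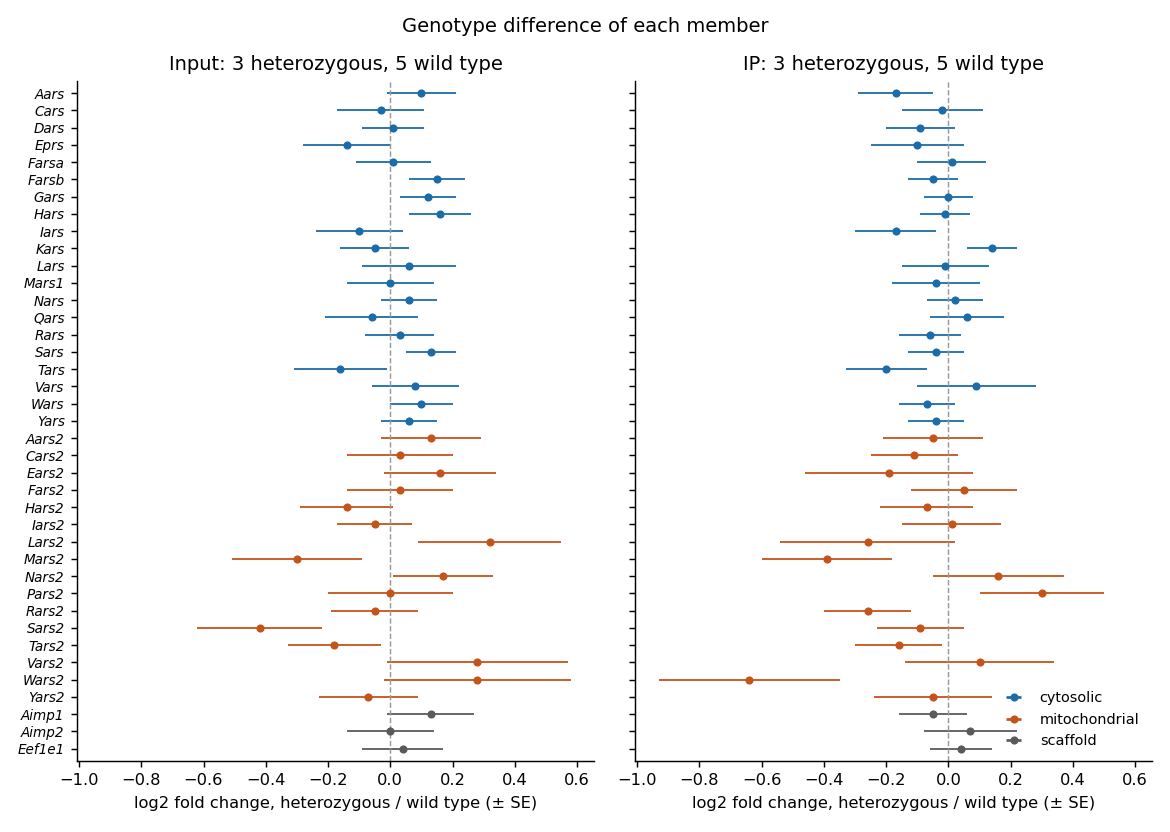
Log2 fold change of heterozygous against wild type with its standard error from edgeR (x axis) for each of 39 members (y axis), in Input on the left and IP on the right, from 3 against 5 animals. Points lie between -0.64 and 0.32, widest for mitochondrial members of low count, and none was called.

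Whether the genotype difference itself differed between IP and Input was tested with both fractions in 1 fit. The difference of the log2 fold changes, IP minus Input, was called for 0 of 39 members by edgeR with animal as a block (adjusted p of 1.0 for each named here), as for 0% of 14797 genes. DESeq2 and limma-voom also called 0 members and 0 genes. At an unadjusted p below 0.05, 3 members passed, where 3.07% of all genes did. They were Wars2 at -0.86 ± 0.39, Aars at -0.27 ± 0.12 and Lars2 at -0.52 ± 0.24 (log2, SE, by edgeR), where limma-voom passed 2 members and DESeq2 0. The Lars2 difference was -0.26 without het786 and -0.83 without het729. The per-animal log2 ratios of IP to Input of Aars were 0.10, 0.32 and 0.29 in heterozygotes and 0.50, 0.31, 0.68, 0.45 and 0.58 in wild types, so that the groups overlapped through het729 and wtBT14. Those of Wars2 were 0.43, -0.49 and -0.80 in heterozygotes and 1.0, 0.93, -0.19, 0.48 and 0.42 in wild types, with overlap. Those of Lars2 were -1.26, -0.56 and -1.68 in heterozygotes and -0.53, -0.98, -0.13, -0.90 and -0.72 in wild types, and overlapped too. The ratio of wtBT13 was the highest for Wars2, and that of het786 the lowest for both genes.

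Other genes of tRNA charging and translation give the surroundings of these values in IP against Input. In this comparison 33.3% of all 14797 genes tested were called higher and 29.9% lower, shares that stand beside each count below. Of 17 other genes of tRNA charging, 13 were called higher and 1 lower, with a median log2 fold change of 0.55. Tarsl2, a further threonyl enzyme, rose from 19.3 to 40.5 CPM in Input to 56.3 to 84.5 CPM in IP, a mean log2 ratio of 1.36 ± 0.31 (SD, n = 8). Qrsl1, a subunit of the mitochondrial glutamyl-tRNA amidotransferase, was at 0.91 ± 0.19, and Aarsd1, an editing protein for misloaded alanine tRNA, at 0.90 ± 0.50. Of 15 mitochondrial translation factors, 11 were called higher and 1 lower, with a median of 0.49. Gfm1 and Mtif2, an elongation and an initiation factor, rose to mean log2 ratios of 1.07 and 1.01, the release factor Mtrf1 to 0.90, and Mtfmt, which formylates the initiator tRNA and is on both of these lists, to 0.66. Of 76 mitochondrial ribosomal proteins tested, 37 were called higher and 7 lower, with a median of 0.19. Those with the largest differences were Mrpl21, Mrps27, Mrpl1 and Mrpl22, at mean log2 ratios of 0.89, 0.87, 0.85 and 0.82.

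The cytosolic elongation factors went the other way. Of 8, 0 were called higher and 5 lower, beside 33.3% and 29.9% of all genes tested. The median log2 fold change of the 8 was -0.33. Eef1a1, which carries charged tRNAs to the ribosome, fell from 469 to 742 CPM in Input to 153 to 311 CPM in IP, a mean log2 ratio of -1.51 ± 0.32 (SD, n = 8). Eif5a had a mean log2 ratio of -0.94, Eef1g of -0.64 and Eef1a2 of -0.35, and all 3 were called lower. Of 30 tested genes of Atf4 and the amino acid response, a list that also holds the tRNA exporter Xpot from the charging list, 7 were called higher and 13 lower, with a median of -0.07. Nupr1 and Phgdh fell, to mean log2 ratios of -2.42 and -1.07, and Eif2ak3, a kinase that acts ahead of Atf4, and Aldh18a1, an enzyme of proline synthesis, rose to 1.14 and 1.06. Atf4 itself was at 109 to 149 CPM in IP and 128 to 217 CPM in Input, a mean log2 ratio of -0.51 ± 0.22 (SD, n = 8). All 13 mRNAs of the mitochondrial genome tested were called lower, with a median of -4.21. Of the lists in this and the preceding paragraph, 0 genes were called between genotypes in either fraction by edgeR. At an unadjusted p below 0.05, 2 of 8 elongation factors passed in Input. Of the Atf4 list, 1 of 30 genes passed in IP and 1 of 29 in Input. Of all genes tested, 4.09% passed in IP and 7.06% in Input.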

How the data were processed

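The deposited values are whole-number counts per Ensembl gene. The submitters' processing notes name HTSeq as a tool and mm10 as the build. Libraries were made with Smart-seq2 per the labels' protocols, a method that does not mark strand. The HTSeq version, the aligner, the annotation release and the strand setting are not given in the sources used here, so reads of overlapping genes on opposite strands may not be told apart. Positions and overlaps came from GENCODE vM21 on the same build, and 24873 of 25317 identifiers matched a gene name.

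The main tool was edgeR 4.0.16 under R 4.3.3, with TMM scaling, filterByExpr with a minimum of 10, and the robust quasi-likelihood test with Benjamini-Hochberg adjustment at 0.05. IP against Input used 8 animals with animal as a block. Genotype was tested in each fraction without a block, since each animal gives 1 library there, and the difference of genotype effects was tested with the block. Both fractions of an animal came from 1 lysate, so the pairing comes from the labels. The deviations of the fractions from their group means correlated within an animal at 0.054 to 0.217 over 14797 genes. For all but wtBT14 this was above the correlation with the Input of each other animal of the same genotype. The margin was small in het786, at 0.054 against 0.044. Per-animal ratios are differences of log2 CPM with a prior count of 0.5. DESeq2 1.42.0 and limma 3.58.1 (voom), RLE scaling, totals alone, other filters and priors, left-out animals, names with BT or numbers, and the IX and IXX libraries were alternatives. Scripts were tested on simulated data. P-values of the fits set a difference against the spread between these animals, estimated with information shared across genes. With animal as a block, that is the spread left after the animals' own levels.

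Members and lists were chosen with earlier results of these data known. Library values were printed, at a mean of at least 5 CPM, for the 5 cytosolic members of highest and the 3 of lowest ratio, the 3 mitochondrial ones of highest and the 5 of lowest, all scaffolds, and the 3 of smallest p in each genotype test. Of each other list up to 4 genes with the largest ratios were named. Protein features were not analysed here. Some items that these rules would name are not reported here.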

Additional observations from a re-analysis of the deposited data

Results flagged for a closer look

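Of 85 groups of 4 to 10 values examined for a sample far from the others, 3 held one, and chance gives about 1 in 20. Wars2 stood at 11.5 CPM in the wtBT13 IP library, where the gap to the next wild-type IP library was 0.74 of the range of 5. The log2 ratio of IP to Input of Qars was 1.44 in het786, with a gap of 0.548 of the range of 8 animals. That of Ears2 was -0.45 in the same animal, with a gap of 0.611 of the range.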

How the results depend on the processing

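Genes called between IP and Input numbered 9355, and 8999 with no replicate block, the pairing left out. Without the block the difference of genotype effects again gave 0 genes. DESeq2 called 3 genes between genotypes in IP. With no filter on low counts 28 genes were called in Input and 11 for the difference of genotype effects, none of them a member. The count of cytosolic members called lower was 1 with no filter and 1 to 3 with an animal left out, against 2. It was 3 without het729, where Hars was called, and 3 without wt734, where Yars was (edgeR adjusted p = 0.0421 and 0.0496). The count of mitochondrial members called higher was 11 with no filter, 11 without het729 and 9 without hetBT13, against 10. Scaling by totals alone gave median log2 ratios of 0.57 for cytosolic and 0.77 for mitochondrial members, against 0.33 and 0.53, and moved the median of all genes from 0.03 to 0.27. It turned Dars, Gars, Hars and Yars to above 0, and RLE scaling turned Sars to below 0. With an animal left out the medians were 0.30 to 0.35 and 0.52 to 0.56. Leaving out Lars2, chosen after seeing the data, gave 0.57 for mitochondrial members, and leaving out Gars and Kars gave 0.42 for cytosolic members. Of the single-member calls in IP against Input, 529 alternatives kept their side of the threshold, 13 lost the call and 4 gained it. Direction was not always kept by uncalled members near 0. Dars, at -0.03 with all animals, was at 0.01 without het786. The lost calls were those of Farsb, Gars and Ears2. All 129 alternatives for named members in the genotype tests stayed uncalled with their direction. Low counts limit Wars2 and Vars2 most.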
